A study of Mus musculus with 12 samples.

Results

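The suppressors of cytokine signalling (SOCS) family of the mouse has 8 members, Socs1 to Socs7 and Cish, and their mRNAs were followed here through maps of N6-methyladenosine (m6A) in dendritic cells (DC). Members were taken as the rows of the 3 m6A peak lists that carry one of these gene symbols. Of the 8 members, 7 had a peak in at least one list, out of 9142 transcripts with a peak in any list. The family held 29 of the peaks, 8 in immature DC, 12 in mature DC and 9 in regulatory DC, and Socs1 had no row in any of the 3 lists.

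SOCS proteins are feedback brakes on cytokine receptors. Cytokines signal through Janus kinases (JAK) bound to the receptor and through the STAT factors they phosphorylate, and STAT factors switch on SOCS genes. Each SOCS protein carries an SH2 domain, which binds phosphorylated tyrosines of receptors or kinases, and a SOCS box, which recruits elongins and cullin 5 so that bound proteins are tagged with ubiquitin. In DC, SOCS1 and SOCS3 are known for holding back responses to interferons, IL-6 family cytokines and microbial products. m6A is the commonest internal mark of mRNA. It is written by a complex around METTL3 on the A of short motifs such as GGAC, and it affects how long an mRNA lasts and how well it is translated.

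The cells were bone marrow-derived DC of 6-week-old C57BL/6 mice, with no genetic change named in the labels, grown in GM-CSF (10 ng/ml) and IL-4 (1 ng/ml) and selected for CD11c on day 5. They were studied as immature DC (imDC), as mature DC (maDC) after 24 h of LPS at 100 ng/ml, and as regulatory DC (DCreg), which are maDC after a further 7 days of co-culture with spleen endothelial cells. Each DC type had 2 replicates with an immunoprecipitated (IP) and an input library each, 12 libraries in all, from marrow pooled over mice. Per the labels the imDC and maDC libraries without a replicate number were made with a TruSeq kit and the other libraries with NEBNext Ultra. The part of the kit in the results below was not tested.

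Each list gives, per peak, the log2 enrichment of IP over input in replicate 1 and in replicate 2, relative to the median window of the same transcript. A peak had to reach a log2 enrichment of 1 in both replicates. The lists hold no expression values and no read counts, so depth is unknown and a missing peak cannot be told apart from a transcript that was scarce or not expressed. Fewer cells with a marked transcript and less of the mark per cell cannot be told apart either. The paper calls the 2 replicates biological, but neither it nor the labels say that they came from separate cultures. The p-values therefore measure only the spread between these samples.

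Markers of the cell types could be read only as the presence of a peak. Of 8 DC markers, 6 had a peak in imDC, 7 in maDC and 3 in DCreg. Itgax, which encodes CD11c, was among those with a peak in all 3 lists. Of 10 endothelial markers, 0 had a peak in imDC, 3 in maDC and 2 in DCreg. Of 5 macrophage markers, 2 had a peak in imDC, 3 in maDC and 4 in DCreg. None of the 4 T and B lymphocyte markers had a peak in any list. The mannose receptor gene Mrc1 was the macrophage marker with its peak in DCreg alone, at 2.88 and 3.10 in the replicates. Apart from the lymphocyte markers, these counts differed between DC types, in no common direction. Their part in the family's results was not tested.

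The lists name 10 GGACT positions within SOCS family peaks, and they are printed here because they are the bases on which the mark could sit in each transcript. Each sequence is 29 bases of the RNA strand from RefSeq on GRCm38 (mm10), 5′ to 3′ and written with T for U, with GGACT in capitals. The first set holds the motifs inside peaks of all 3 DC types.
Socs3 (chr11:117967251-117967279, minus strand): cctttgacaagcGGACTctcccctcccct
Cish (chr9:107300952-107300980, plus strand): cagtccccagctGGACTtggggttctgct
Socs5, first motif (chr17:87134839-87134867, plus strand): gttcttgctcagGGACTctgcacaggagg
Socs5, second motif (chr17:87134854-87134882, plus strand): ctctgcacaggaGGACTacctcttctctg

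The Socs3 motif lies in exon 2 of 2, with its A 288 nt beyond the stop codon. The Cish motif lies in exon 3 of 3, with its A 66 nt beyond the stop codon. The Socs5 pair is coding, in codons 407 and 412 of exon 3 of 3, with 15 nt between the 2 adenosines. The next set holds the motifs of Socs7, found in imDC and maDC peaks, and those found in peaks of 1 DC type.
Socs7, first motif (chr11:97362792-97362820, plus strand, imDC and maDC): ggtcccgtggctGGACTagaggcgcagct
Socs7, second motif (chr11:97363133-97363161, plus strand, imDC and maDC): ctttccgctgcaGGACTtggtccctccag
Socs5, motif in codon 68 (chr17:87133823-87133851, plus strand, maDC): gccttacagctgGGACTgagcccttccaa
Cish, second motif (chr9:107300825-107300853, plus strand, maDC): ggtggccgacgtGGACTgcctacccctgc
Socs2 (chr10:95412797-95412825, minus strand, DCreg): ccccacggaatgGGACTgttcacctgtac
Socs4 (chr14:47289816-47289844, plus strand, DCreg): gtccattgagttGGACTtagatcattcct

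These 6 motifs are all annotated as coding, in codons 124 and 238 of Socs7 (exon 1 of 10), 68 of Socs5, 238 of Cish, 147 of Socs2 and 74 of Socs4. Searched on the RNA strand alone, GGACT was listed in 5 of 8 family peaks in imDC, 6 of 12 in maDC and 5 of 9 in DCreg. Over all peaks the share was 31.4% in the imDC list, 33.1% in the maDC list and 28% in the DCreg list. The looser motif GGACN, which includes GGACT, was found in 7 of 8 family peaks in imDC, 9 of 12 in maDC and 7 of 8 in DCreg, where the Socs6 peak was not read. Over the peaks of transcripts whose sequence matched the lists, 70.3% of imDC peaks, 69.9% of maDC peaks and 63.7% of DCreg peaks held GGACN. A match is a description of the letters and does not place the mark on that base.

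**Figure D1:**
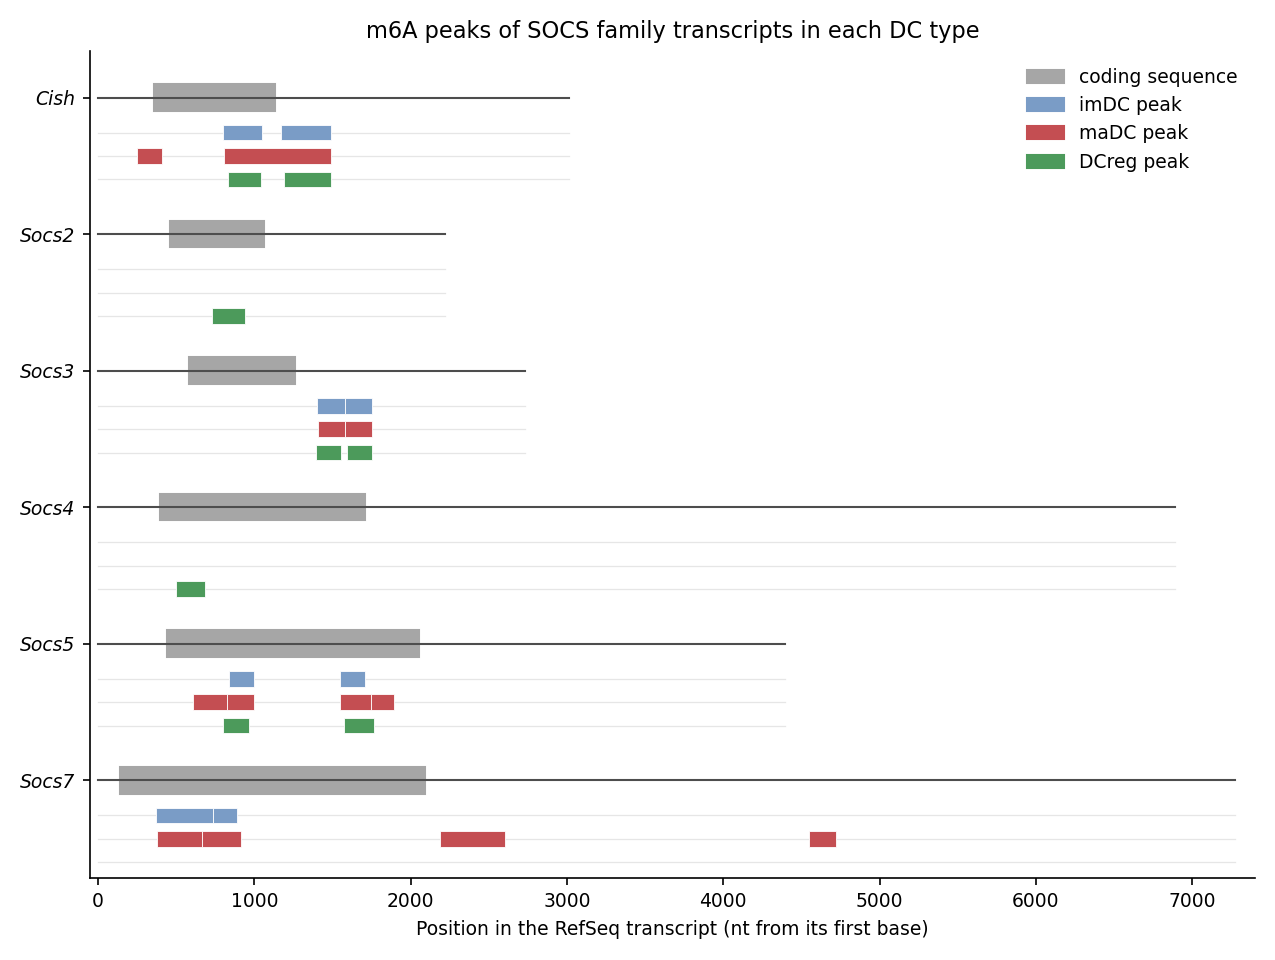
m6A peaks along the RefSeq transcripts of 6 family members, with the position in nt on the x axis, the coding sequence as a grey box and 1 row of coloured bars per DC type (imDC, maDC, DCreg from top to bottom). Socs3, Socs5 and Cish have peaks in every row, Socs7 has none in DCreg, and Socs2 and Socs4 have 1 peak each, in DCreg.

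The family split by where its peaks were found. Socs3, Socs5 and Cish, 3 of the 7 members with a peak, had peaks in all 3 DC types, as did 50.2% of the transcripts with a peak in any list. Socs7 was in the imDC and maDC lists without a DCreg peak, as were 10.6% of transcripts. Socs2, Socs4 and Socs6 had a peak in DCreg alone, 3 of 7 members against 6.71% of transcripts. By DC type, 4 of the 7 members had a peak in imDC (66.1% of transcripts), 4 in maDC (88.1%) and 6 in DCreg (72.8%). With 7 transcripts these shares are counts of named genes, and they were not tested.

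Socs3, which inhibits JAK kinases at receptors that share the gp130 chain, carried 2 neighbouring 3′UTR peaks in each DC type. The first peak, which holds the GGACT printed above, stood at 2.07 and 2.37 in the imDC replicates, 2.53 and 4.01 in the maDC replicates and 2.28 and 1.34 in the DCreg replicates. The second peak stood at 1.94 and 2.84 in imDC, 3.10 and 3.29 in maDC and 3.30 and 3.01 in DCreg. Both peaks were thus higher in both maDC replicates than in either imDC replicate, as were 23.6% of all peaks shared by maDC and imDC. In DCreg the second peak overlapped the maDC values. The first lay below them, as did 14.6% of all peaks shared by DCreg and maDC. In maDC the peaks were at chr11:117967231-117967404 and chr11:117967060-117967230, and their centres lay 236 and 408 nt past the stop codon.

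The peaks of Socs3 adjoined each other in imDC, where the first ended at position 1578 of the transcript and the second began at 1579, and in maDC, where the border was at 1580 and 1581. In DCreg they were apart, at 1392 to 1556 and 1596 to 1752. The second peak holds no GGACT in any list. The stretch of it common to the 3 lists has 1 GGACN, printed here with the motif in capitals because it is the only such motif there.
Socs3, second peak (chr11:117967199-117967227, minus strand): caagggaggtggGGACAcctccaagtgtt

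The limma comparison of the Socs3 peaks found no difference past the threshold of an adjusted p of 0.05. For the first peak, maDC minus imDC was 1.05 ± 0.69 (log2, SE, 95% interval -0.29 to 2.39, adjusted p = 0.982). DCreg minus maDC was -1.46 ± 0.68 (interval -2.80 to -0.12), with a limma p of 0.0326 before adjustment and 0.661 after it. This was the family's one shared peak with an unadjusted limma p below 0.05, as had 7.11% of all peaks shared by DCreg and maDC. Its 2 DCreg values lay below its 2 maDC values, as in 14.6% of all peaks shared by these 2 lists. DCreg minus imDC was -0.41 ± 0.61 (interval -1.67 to 0.85, adjusted p = 0.902 by limma). For the second peak the differences were 0.81 ± 0.69 in maDC minus imDC, -0.04 ± 0.72 in DCreg minus maDC and 0.77 ± 0.73 in DCreg minus imDC (adjusted p = 0.982, 0.995 and 0.849 by limma).

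Cish, a STAT5 target gene whose protein competes for docking sites on cytokine receptors, was marked around its stop codon in all 3 DC types. In imDC a coding peak (positions 772 to 1019) stood at 3.43 and 1.88 and a 3′UTR peak (1144 to 1462) at 3.77 and 2.08. In maDC 1 long peak (776 to 1460) covered both regions and the stretch between them, at 1.95 and 2.55. In DCreg the regions were separate again, with the coding peak (803 to 1016) at 2.57 and 2.74 and the 3′UTR peak (1163 to 1463) at 2.94 and 3.15. The replicates were far apart in imDC, by 1.55 and 1.69 in its 2 peaks, and close in DCreg, where replicate 2 was higher by 0.17 and 0.21.

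The long maDC peak of Cish measured 685 nt, and 5 of the 17316 maDC peaks (0.0289%) were at least as long. It is also the one family peak listed at a stop codon. Its GGACT in codon 238 lies between the 2 peaks of imDC and of DCreg and was under a peak in maDC alone. A further maDC peak of Cish at the start codon (222 to 379), which crosses the junction of exons 1 and 2, was the weakest of the family at 1.06 and 1.20, with 4.78% of maDC peaks below it by their lower replicate value.

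Each peak was paired once, with the peak it overlapped most, so the merged maDC peak was set against the 3′UTR peaks, over 317 nt shared with imDC and 298 nt shared with DCreg, 46.3% and 43.5% of its length. The values therefore describe regions of unequal width. On that basis maDC minus imDC was -0.67 ± 0.68 (95% interval -2.01 to 0.66, adjusted p = 0.985 by limma), and DCreg minus maDC was 0.80 ± 0.69 (-0.56 to 2.15, adjusted p = 0.851 by limma). Between DCreg and imDC, where both regions match, the differences were 0.12 ± 0.77 in the 3′UTR (-1.45 to 1.69) and -0.00 ± 0.74 in the coding peak (-1.52 to 1.52). Their adjusted p-values were 0.975 and 1 by limma.

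Socs2, a brake on growth hormone signalling and the closest relative of Cish in the family, had 1 peak, in DCreg. It lay in the coding sequence (positions 730 to 938, codons 90 to 159 of a protein of 198 amino acids, chr10:95412774-95412982), at 1.63 and 2.47. Of all DCreg peaks, 45.2% had a lower replicate value below that of this peak, which places it near the middle of the list.

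Socs4 and Socs5 form a pair with long N-terminal regions, linked to signalling through the EGF receptor. Socs4 had 1 coding peak in DCreg (279 to 461 in the listed transcript, codons 36 to 97 of 436 amino acids, chr14:47289716-47289898) at 1.74 and 1.98, with 51.3% of DCreg peaks below it. Socs5 had coding peaks in every DC type, 2 in imDC, 4 in maDC and 2 in DCreg, all in exon 3.

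The Socs5 peak upstream stood at 1.17 and 2.98 in imDC (836 to 999), 2.46 and 2.93 in maDC (826 to 1001) and 3.87 and 1.94 in DCreg (801 to 964). The downstream peak, over the GGACT pair, stood at 2.12 and 2.67 in imDC (1549 to 1706), 2.31 and 2.32 in maDC (1551 to 1744) and 3.14 and 1.87 in DCreg (1572 to 1769). The replicates of DCreg lay 1.93 and 1.27 apart, and all 3 DC types overlapped at both sites. In maDC each site was extended by an adjoining peak, one before the upstream site (611 to 825) at 1.49 and 2.49 and one after the downstream site (1745 to 1892) at 2.29 and 1.28. The extension at 611 brought the GGACT in codon 68 under a peak.

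None of the Socs5 differences passed the limma test. At the upstream site they were 0.62 ± 0.67 in maDC minus imDC (95% interval -0.70 to 1.94), 0.21 ± 0.70 in DCreg minus maDC (-1.17 to 1.59) and 0.83 ± 0.79 in DCreg minus imDC (-0.79 to 2.45). At the downstream site they were -0.08 ± 0.67 in maDC minus imDC (-1.40 to 1.24), 0.19 ± 0.67 in DCreg minus maDC (-1.11 to 1.5) and 0.12 ± 0.72 in DCreg minus imDC (-1.37 to 1.60). The adjusted p-values by limma ran between 0.849 and 0.999.

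Socs6, whose protein binds the receptor tyrosine kinase KIT, had 1 coding peak, in DCreg (1039 to 1251 in the listed transcript), at 1.29 and 1.74. Its lower value exceeded 22.9% of DCreg peaks, the lowest place of the 3 members found in DCreg alone, and the list gives no GGACT in it. Its genome position was not set here.

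Socs7, a member with a long N-terminal region that binds adaptor proteins, had the strongest peaks of the family and none in DCreg. Its first peak stood at 3.45 and 3.51 in imDC (110 to 475 of the listed transcript) and at 3.62 and 4.72 in maDC (117 to 407). The adjoining second peak stood at 2.46 and 3.35 in imDC (476 to 632) and at 3.36 and 3.67 in maDC (408 to 654). Both lie in exon 1 of 10, and the first covers codons 76 to 197 in imDC and 78 to 175 in maDC, of 648 amino acids. By its lower value the first peak was above 98.1% of imDC peaks and 97.9% of maDC peaks.

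At both Socs7 peaks the 2 maDC values were above the 2 imDC values, as in 23.6% of all peaks shared by maDC and imDC. The differences were 0.69 ± 0.73 (95% interval -0.74 to 2.12) and 0.61 ± 0.70 (-0.76 to 1.99) in maDC minus imDC, each with an adjusted p of 0.985 by limma. In maDC the 3′UTR carried a pair of weaker peaks as well, at 1.32 and 2.22 (1931 to 2348) and at 1.22 and 1.51 (4290 to 4461). No Socs7 peak passed the criteria of the DCreg list, although its coding peaks were among the highest of the family in both other DC types.

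Socs1, an inhibitor of JAK kinases and the member best known for restraining interferon signalling, was searched for by symbol, gene identifier and transcript and had no peak in the lists. The study presents Socs1 as an m6A-marked control, with 3′UTR peaks in the read tracks of its maDC map and with targeted assays. Its list of qPCR primers, however, gives a pair at an m6A site of Socs3 and none for Socs1. Neither the tracks nor the assays were analysed here. The RefSeq transcript of Socs1 (1220 nt) holds 0 GGACT, and 93.1% of the sequence-matched transcripts with a peak hold at least one. The other members hold between 2 (Socs4) and 9 (Socs7) GGACT in the whole transcript. Counted by peak the share with GGACT was lower, 31.4% in imDC, 33.1% in maDC and 28% in DCreg. A link between the motif and the missing Socs1 peak was not tested. A missing peak cannot be told apart from a scarce transcript.

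**Figure D2:**
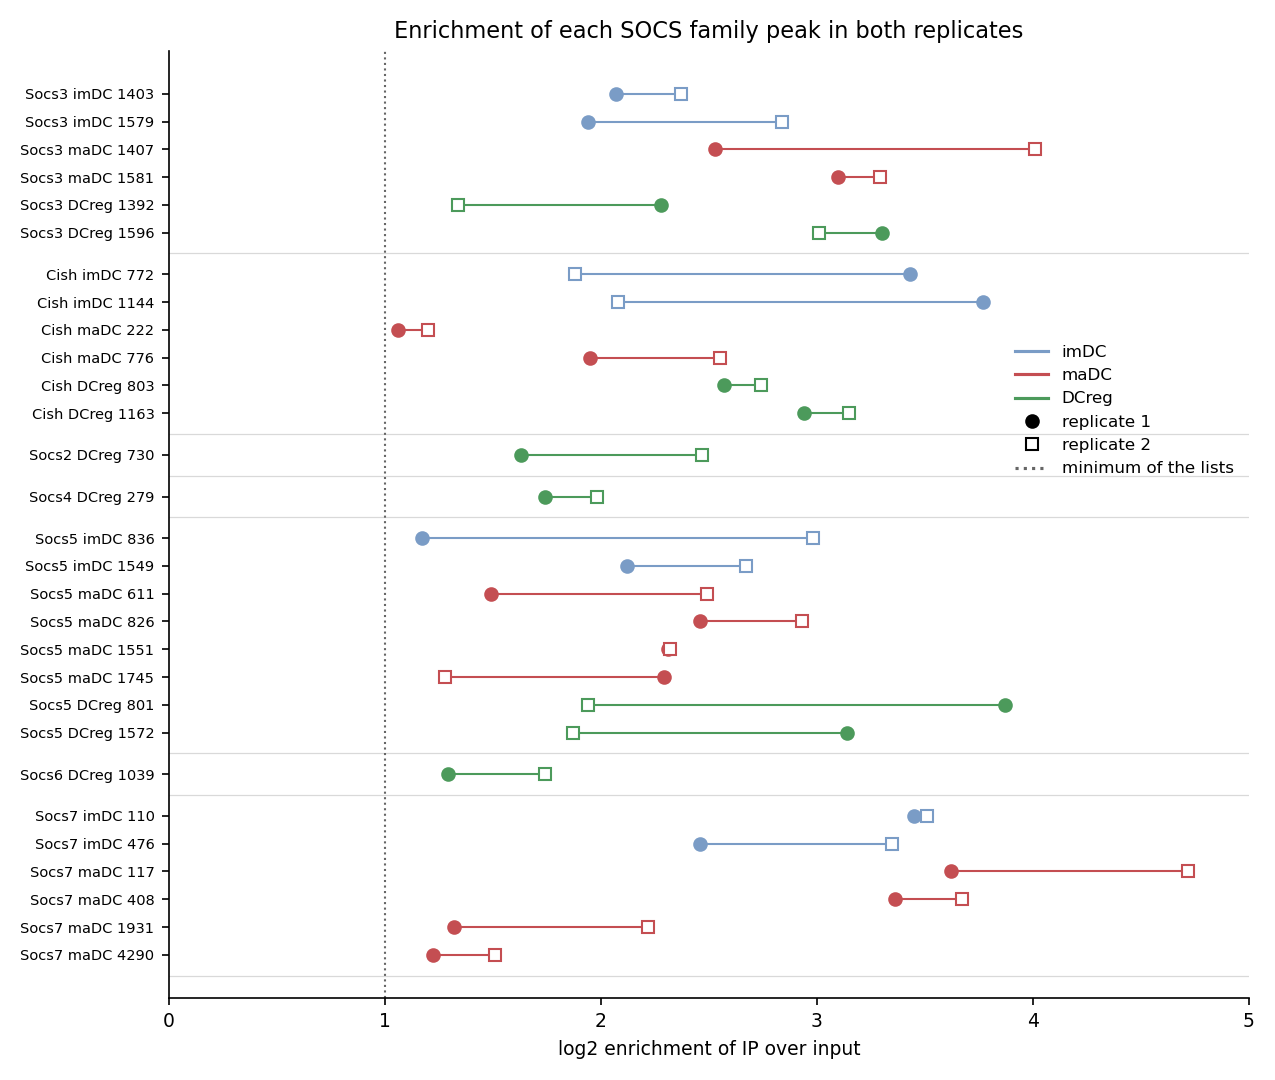
log2 enrichment of IP over input (x axis) for each of the 29 family peaks, named by gene, DC type and first position, with replicate 1 as filled circles, replicate 2 as open squares and a line between them. Socs7 in maDC reaches the highest value, 4.72, and the peaks of Socs2, Socs4 and Socs6 in DCreg all have a replicate below 2.

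At stricter enrichment fewer members kept a peak in DCreg and, at the strictest level, in maDC, while imDC kept all of its members. Where both replicates had to reach 1.5 on the log2 scale, 4 members kept a peak in imDC, 4 in maDC and 5 in DCreg, where Socs6 was lost. Of all transcripts with a peak in the list, 65.2% kept one at 1.5 in imDC, 75.9% in maDC and 74.4% in DCreg. At 2 in both replicates, 4 members kept a peak in imDC, 3 in maDC, where Cish was lost, and 2 in DCreg, which were Socs3 and Cish. The share of all transcripts at 2 was 38.9% for imDC, 51% for maDC and 50.5% for DCreg. Socs2, Socs4, Socs5 and Socs6 were below that level in one or both DCreg replicates. At 2, then, no member was left with a peak in DCreg alone, and of the 613 transcripts with peaks in DCreg alone, 49.3% kept one at 1.5 and 22% at 2.

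Placed within the lists, the family peaks were spread over most of the range. By the lower replicate value they lay between 1.17 and 3.45 in imDC (list median 1.58), between 1.06 and 3.62 in maDC (1.71) and between 1.29 and 3.01 in DCreg (1.72). The median family peak was above 74.1% of the list in imDC, 69.4% in maDC and 57.9% in DCreg. Replicate 2 was the higher one in 6 of 8 family peaks in imDC, 11 of 12 in maDC and 5 of 9 in DCreg. Over whole lists the share was 54.6%, 61.8% and 41.6% in that order of DC types.

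**Figure D3:**
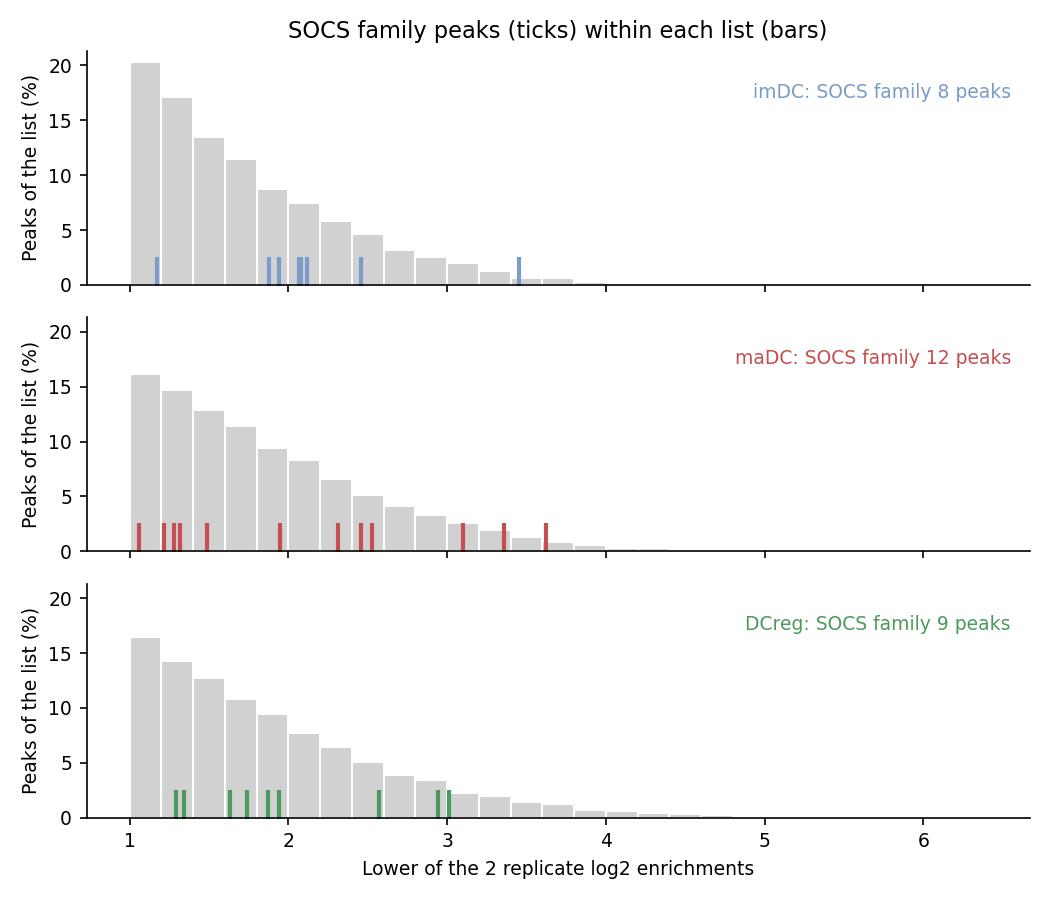
Lower of the 2 replicate log2 enrichments (x axis) for all peaks of each list, as the percentage of the list per bin of 0.2 (grey bars), with the family peaks as coloured ticks. The family spans 1.17 to 3.45 in imDC, 1.06 to 3.62 in maDC and 1.29 to 3.01 in DCreg.

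Most family peaks lay in the coding sequence or the 3′UTR. Of the 29 peaks, 17 were listed in the coding sequence, 10 in the 3′UTR, 1 at a start codon, 1 at a stop codon and 0 in a 5′UTR. By DC type, 5 of 8 family peaks were coding in imDC (37.3% of the list), 6 of 12 in maDC (38.1%) and 6 of 9 in DCreg (47.1%). In the 3′UTR were 3 of 8 in imDC (22.8% of the list), 4 of 12 in maDC (27.4%) and 3 of 9 in DCreg (28.6%), so these 2 parts also held most peaks of every list. Start codon peaks made up 14.6% of imDC, 11.1% of maDC and 6.66% of DCreg peaks, and stop codon peaks 12.4% of imDC, 14.7% of maDC and 11.7% of DCreg peaks. Socs3 was marked in the 3′UTR alone, Socs2, Socs4, Socs5 and Socs6 in the coding sequence alone, and Cish and Socs7 in both. Over the whole lists, 5′UTR peaks made up 11.6% of imDC, 7.37% of maDC and 4.69% of DCreg peaks. Peaks that adjoin another peak with no base between them were 4 of 8 in imDC (16.6% of the list), 8 of 12 in maDC (21.8%) and 0 of 9 in DCreg (20%), so the number of family peaks is not a number of separate sites.

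Across all peaks shared by 2 lists, the tests called few, and none was of the family. Between maDC and imDC, 7 of the 8306 shared peaks were the family's, and limma called 0 (0%), with 294 peaks (3.54%) at an unadjusted p below 0.05 and 0 of them in the family. Between DCreg and maDC, 5 of 8486 shared peaks were the family's, and limma called 23 peaks (0.271%), all higher in DCreg and 0 in the family, with 603 (7.11%) at an unadjusted p below 0.05. These 23 calls depended on the fit, with 1 call under the replicate block, 0 without the trend and 1 to 143 with 1 replicate left out. Between DCreg and imDC, 6 of 6124 were the family's, and limma called 0 (0%), with 386 (6.3%) at an unadjusted p below 0.05. The SE of a family difference was 0.61 to 0.79. The first Socs3 peak, at -1.46 in DCreg minus maDC, had an adjusted p of 0.661 by limma. Differences of about 1 log2 unit, and this larger one, were thus not detectable with 2 replicates. The 3 comparisons share their samples and are not independent of each other.

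The family's median difference was 0.62 in maDC minus imDC, 0.19 in DCreg minus maDC and 0.12 in DCreg minus imDC, beside 0.21, 0.03 and 0.31 for all shared peaks. Both maDC replicates were above both imDC replicates in 4 of the 7 family peaks, the pairs of Socs3 and of Socs7, as in 23.6% of all shared peaks, and below in 0 (7.46% of all). Both DCreg replicates were above both maDC replicates in 1 of 5, the Cish 3′UTR peak (21.6% of all), and below in 1, the first Socs3 peak (14.6%). For Cish the maDC values are those of the long merged peak, and 43.5% of its length overlaps the DCreg peak. Both DCreg replicates were above both imDC replicates in 1 of 6, the second Socs3 peak (30.2% of all), and below in 0 (7.17%).

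**Figure D4:**
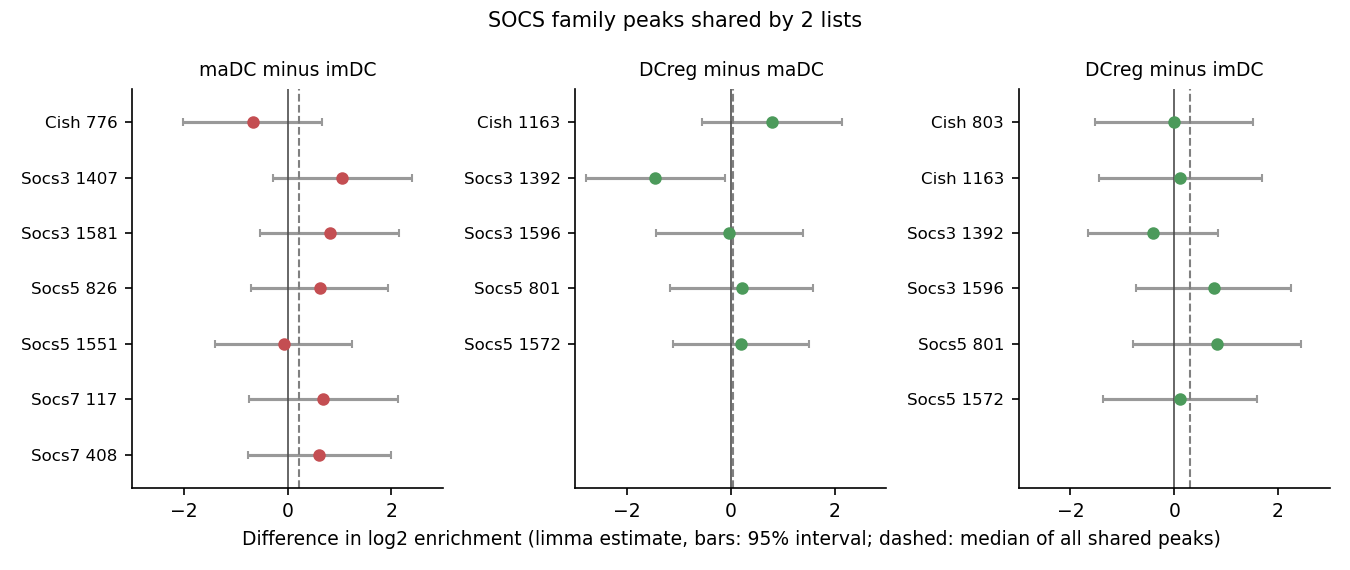
Differences in log2 enrichment for the family peaks shared by 2 lists, named by gene and first position in the DC type named first, as limma estimates with 95% intervals. All intervals cover 0 except that of the first Socs3 peak in DCreg minus maDC (-2.80 to -0.12), and the dashed line gives the median of all shared peaks (0.21, 0.03 and 0.31).

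The JAK and STAT genes on which SOCS proteins act were also read. Of 4 JAK genes, 3 had a peak in each of the 3 DC types, led by Jak1 (maDC, 4.53 and 3.69), Jak2 (maDC, 3.23 and 3.85) and Tyk2 (DCreg, 2.82 and 2.80), all in the 3′UTR. Of 7 STAT genes, 7 had a peak in imDC, 7 in maDC and 6 in DCreg, among them the interferon factor Stat2 (maDC, 4.07 and 3.51) and Stat5a (maDC, 2.52 and 2.97). Of 18 receptor chains restrained by SOCS proteins, 13 had a peak in imDC, 16 in maDC and 13 in DCreg, led by Il10ra (DCreg, 3.77 and 6.26), Il12rb1 (maDC, 3.40 and 4.49) and Csf2rb2 (DCreg, 3.31 and 3.86). Of the 3 JAK, 7 STAT and 17 receptor genes with a peak in any list, 0 had peaks in DCreg alone. Over all transcripts with a peak in any list the share was 6.71%, and the counts were not tested against it. None of the shared peaks of these 3 gene lists was called by limma in any comparison.

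The shared peaks of these lists had medians of their own. In maDC minus imDC the median difference was 0.51 over 6 JAK peaks, 0.20 over 11 STAT peaks and -0.02 over 24 receptor peaks. In DCreg minus maDC it was -0.76 over 5 JAK peaks, -0.61 over 10 STAT peaks and 0.08 over 26 receptor peaks, beside the family's 0.19. In DCreg minus imDC it was 0.19 over 5 JAK peaks, -0.55 over 7 STAT peaks and 0.30 over 21 receptor peaks, beside the family's 0.12.

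By the lowest of its 6 values, the rule used here, the Cish peak over the 3′UTR (1.95) ranked first among the family peaks found in all 3 lists, next to the second Socs3 peak (1.94). The order turned by the mean of the 6 values, 2.74 for Cish and 2.91 for Socs3, and the maDC values of Cish come from the long peak that also covers coding sequence. Among 5336 peaks shared by all 3 lists, those with the smallest Euclidean distance from the Cish peak over the 6 replicate values included peaks of Ext1 (0.57), Maml1 (0.66) and Vegfa (0.68). These named peaks had a higher value in imDC replicate 1 than in imDC replicate 2, as Cish had (3.77 and 2.08). That order follows from choosing them by these same values and is no separate observation. The likeness is one of 6 numbers that share their libraries.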

How the data were processed

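m6A was mapped by meRIP-seq in imDC, maDC and DCreg, and samples were grouped by the cell type in their labels. For each DC type the authors deposited 1 list of peaks called on both replicates, with the log2 enrichment of IP over input per replicate, the RefSeq transcript, position, transcript part and GGACT positions. As the methods describe, TopHat2 (2.0.14 per the submitters' processing notes) placed the reads on mm10, and IP and input reads were counted in sliding windows on the longest isoform, tested with edgeR, whose version the sources used here leave out, and merged where windows overlapped. Windows far below the top window of the same transcript were left out, and a peak had to pass in both replicates, so a missing peak is no measure of zero m6A.

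Peaks of 2 lists were taken as shared where the overlap covered at least 50% of the shorter peak, and their log2 values were set against each other in limma 3.58.1 (lmFit, eBayes with trend, R 4.3.3) over all shared peaks, with Benjamini-Hochberg adjustment. The code was tested on simulated data. Sequences came from RefSeq on GRCm38. Of 9142 listed transcripts, 9072 were in this annotation. Listed positions were shifted by a constant so that every listed GGACT and no other lay in the peaks (30 nt for Cish, 223 for Socs4, 259 for Socs7, 0 for Socs2, Socs3 and Socs5, up to 1000 nt searched). For Socs2 and Socs3 another shift also held, and the one nearest 0 was used. The Socs6 peak has no listed GGACT and was not placed. Positions in the text are the listed ones.

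Every member was named with all peaks, up to 3 genes per pathway list by their lower replicate value, and the 5 peaks most like the strongest family peak of all lists. Some genes that this rule picks are not reported here. Members, lists and tests were chosen with earlier results of these data known. The replicate columns carry no sample name, so which library stands behind which column could not be checked. Other overlaps, thresholds, centring, a replicate block and fits without each replicate were tried.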

Additional observations from a re-analysis of the deposited data

How the results depend on the processing

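No family difference passed the limma test under any alternative (smallest adjusted p = 0.134), so the limits lie in directions and in the whole-list counts. Of 18 family differences, 7 kept their sign under every alternative in which they were fitted, though their size depended on single replicates. Both Socs7 pairs and the Cish pair of DCreg and maDC dropped out at an overlap of 80% of the longer peak. The first Socs3 pair of DCreg and maDC dropped out at a log2 enrichment of 1.5 in all replicates. With 1 replicate left out, maDC minus imDC lay between 0.31 and 1.78 for the first Socs3 peak, 0.36 and 1.25 for the second, 0.14 and 1.24 for the first Socs7 peak and 0.17 and 1.06 for the second. DCreg minus maDC lay between -2.20 and -0.72 for the first Socs3 peak. For the Cish 3′UTR peak, set against the long maDC peak, it lay between 0.49 and 1.10. DCreg minus imDC lay between 0.32 and 1.22 for the second Socs3 peak. With each replicate centred on its median, DCreg minus imDC turned to -0.22 at the Cish 3′UTR peak and -0.23 at the downstream Socs5 peak. Among those that turned with 1 replicate left out, maDC minus imDC ranged between -1.52 and 0.17 for Cish, -0.36 and 0.20 for Socs5 downstream and -0.28 and 1.52 for Socs5 upstream. DCreg minus maDC ranged between -0.18 and 0.11 for the second Socs3 peak, -0.44 and 0.83 for Socs5 downstream and -0.75 and 1.18 for Socs5 upstream. DCreg minus imDC ranged between -0.88 and 0.06 for the first Socs3 peak, -0.72 and 0.96 for the Cish 3′UTR, -0.78 and 0.77 for the Cish coding peak, -0.52 and 0.75 for Socs5 downstream and -0.13 and 1.80 for Socs5 upstream. The cause was not tested.

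The count of 23 calls in DCreg minus maDC became 11 with an overlap of 80% of the longer peak, 8 at a log2 enrichment of 1.5 in all replicates, 1 with the replicate block and 0 without the trend, where 604 peaks had an unadjusted p below 0.05. It was 1 to 143 with 1 replicate left out (143 without DCreg replicate 1, 8 without DCreg replicate 2, 1 without maDC replicate 1 and 2 without maDC replicate 2). In maDC minus imDC the range was 0 to 107 (107 without imDC replicate 2). In DCreg minus imDC it was 0 to 2, and 2 after centring. Deviations of same-numbered replicates correlated at -0.117 in maDC minus imDC, -0.0398 in DCreg minus maDC and -0.345 in DCreg minus imDC. Whether the replicate numbers pair the samples cannot be told, since the library behind each column could not be checked. The replicate block left 0 calls in both comparisons with imDC. A block with the numbers crossed, chosen after seeing the data, gave 1 call in maDC minus imDC and 38 in DCreg minus imDC.

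Members with a peak in DCreg fell to 2 at a log2 enrichment of 2 in both replicates, against 6, and were 3 to 3 with either replicate alone at 2. By the annotated peak centre, 16 peaks were coding in place of 17, without the Socs6 peak. Depth is unknown.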

Other observations

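Proteins outside the family also carry a SOCS box, the domain that joins a bound target to the cullin 5 ubiquitin ligase. Of 28 genes for such proteins, 10 had a peak in imDC, 15 in maDC and 11 in DCreg. In all 3 DC types 9 of them had one. The strongest by the lower replicate value were the coding peak of Asb8 (imDC, 3.97 and 3.71), the 3′UTR peak of Wsb1 (DCreg, 3.58 and 3.20) and the coding peak of Asb7 (maDC, 3.16 and 4.84). No gene of this list had its peaks in DCreg alone, and limma called 0 of its shared peaks, 15 in maDC minus imDC, 16 in DCreg minus maDC and 11 in DCreg minus imDC, with median differences of 0.47, -0.24 and 0.18.

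Of 4 genes for partners of the SOCS box, 3 had a peak in at least one list. By DC type, 1 had a peak in imDC, 2 in maDC and 1 in DCreg. None had a peak in all 3 DC types. The elongin C gene Tceb1 (maDC, 2.24 and 2.29) and the elongin B gene Tceb2 (imDC, 1.26 and 1.23) had peaks at the start codon and Cul5 had one in the 5′UTR (maDC, 1.00 and 1.32), parts of the transcript where the family had 1 peak.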
